A study of Homo sapiens with 9 samples.

Results

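The Krüppel-like factor (KLF) genes were followed across RKO colorectal cancer cells, in which UHRF1 was depleted, histone deacetylases were inhibited, or both. The members were KLF2, KLF3, KLF4, KLF5, KLF6, KLF9, KLF10, KLF11 and KLF13, taken by the gene name that the array files give. Every probe of these names that is not a control was used, which gave 12 of 50599 probes, and 9 of 36337 gene names. KLF6 had 3 probes, KLF11 had 2 and the other 7 genes had 1 each.

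RKO is an established colorectal cancer cell line. Its RNA was hybridized in 1 colour to 9 SurePrint G3 Human GE v2 arrays. siCONT cells received a control siRNA and siUHRF1 cells an siRNA against UHRF1 for 72 h, followed by mock treatment with ethanol. In the groups siCONT + TSA and siUHRF1 + TSA, 300 nM trichostatin A (TSA), a histone deacetylase inhibitor, was given for 24 h after the same 72 h. Each of these 4 groups had 2 arrays, and in both UHRF1-depleted groups array 1 carried siUHRF1-1 and array 2 carried siUHRF1-2, which are different siRNAs. The fifth condition, 1 µM 5-aza-2′-deoxycytidine (5-aza-dC), a DNA methyltransferase inhibitor given for 72 h with no siRNA, had 1 array. All groups are thus the same cell line, and nothing in the labels says that the arrays of a group came from separate cultures, so p-values may measure technical spread. The 8 siRNA arrays shared 1 slide and 1 scan, with mock arrays in slide row 1, TSA arrays in row 2, siCONT in columns 1 and 2, and siUHRF1 in columns 3 and 4. Row cannot be told apart from TSA, nor column from siRNA, and 5-aza-dC had a slide and a scan of its own.

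KLF proteins are transcription factors that bind GC-rich boxes and CACCC boxes in promoters through zinc fingers at the end of the protein. Some members mainly activate and others mainly repress, the latter by recruiting CtBP or Sin3 corepressor complexes that hold histone deacetylases. In the gut, KLF4 is known for differentiated epithelium and KLF5 for proliferating crypt cells, and KLF6 is known as a candidate tumor suppressor. UHRF1 binds hemimethylated DNA and recruits DNMT1 after replication.

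Because UHRF1 depletion and 5-aza-dC both act on CpG methylation, the promoter windows of the genes are described first. Bases are printed for KLF2, KLF4, KLF5 and KLF9. RefSeq windows on GRCh38 reach from 250 bases before to 50 bases after a start, and were found for 7 of the 9 genes, with 2 starts each for KLF5 and KLF11. KLF3 and KLF10 had none. The 150 bases before the start are printed 5′ to 3′, with capitals for each GGGCGG or CACCC on either strand, which can share bases with each other.

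KLF2, chr19:16324676-16324825, plus strand: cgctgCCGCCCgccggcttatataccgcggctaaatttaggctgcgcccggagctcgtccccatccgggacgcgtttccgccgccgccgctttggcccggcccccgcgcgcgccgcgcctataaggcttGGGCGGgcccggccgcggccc
KLF4, chr9:107489770-107489919, minus strand: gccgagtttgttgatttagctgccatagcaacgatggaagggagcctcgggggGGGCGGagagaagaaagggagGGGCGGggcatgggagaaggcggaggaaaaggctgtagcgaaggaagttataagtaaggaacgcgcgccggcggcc
KLF5, chr13:73054826-73054975, plus strand: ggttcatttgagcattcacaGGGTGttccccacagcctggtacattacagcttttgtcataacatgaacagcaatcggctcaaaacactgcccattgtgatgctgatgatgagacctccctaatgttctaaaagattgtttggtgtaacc
KLF9, chr9:70414658-70414807, minus strand: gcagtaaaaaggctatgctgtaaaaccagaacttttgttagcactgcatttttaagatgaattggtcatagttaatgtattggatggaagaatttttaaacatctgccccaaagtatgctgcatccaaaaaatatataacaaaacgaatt

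Over the whole 300 bases, the KLF2 window held 49 CpG dinucleotides and 6 GC boxes (GGGCGG), and that of KLF4 held 33 CpG and 4 GC boxes. KLF11 had 50 and 40 CpG at its 2 starts, KLF13 had 43 and KLF6 had 33. KLF9 stood at the other end, with 1 CpG and neither box in its window. KLF5 joined both kinds, with 4 CpG at the upstream start printed above and 37 at the downstream one. For comparison, all 35116 windows of the table had a median of 14 CpG (quartiles 4 and 28), 45.0% held GGGCGG and 59.9% held CACCC. These letters describe the reference sequence, and the arrays measured no methylation of it.

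UHRF1 itself was read first, as the target of the siRNAs. Levels are log2 signals relative to the 75th percentile of the same array, so they compare arrays for 1 probe and not 1 gene with another. The brighter UHRF1 probe (chr19:4962065-4962124 on hg19) read 2.69 on both siCONT arrays, 0.36 with siUHRF1-1 and 0.08 with siUHRF1-2. Under TSA it read 2.87 and 2.86 in siCONT and -0.34 and -0.62 in UHRF1-depleted cells. UHRF1 was thus lower in every depleted array than in every siCONT array, by 2.47 on the log2 scale without TSA (SE 0.14, limma, Benjamini-Hochberg adjusted p = 0.00238). The labels of the siRNA groups and the target gene go the same way. The RKO label was read against epithelial markers: KRT8, KRT18 and CDX2 were well above background on all 9 arrays, whereas CDH1 and VIL1 were on none. EPCAM was above background on 2 arrays and KRT19 on 3.

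All 9 KLF genes were detected in RKO cells. The brightest probe of 8 of the 9 genes was well above background on all 8 siRNA arrays, and that of KLF4 on 6 of them. The plot of each array's level shows that the siCONT arrays were at most 0.09 apart for every KLF gene, whereas the siUHRF1 arrays were up to 0.94 apart.

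**Figure D1:**
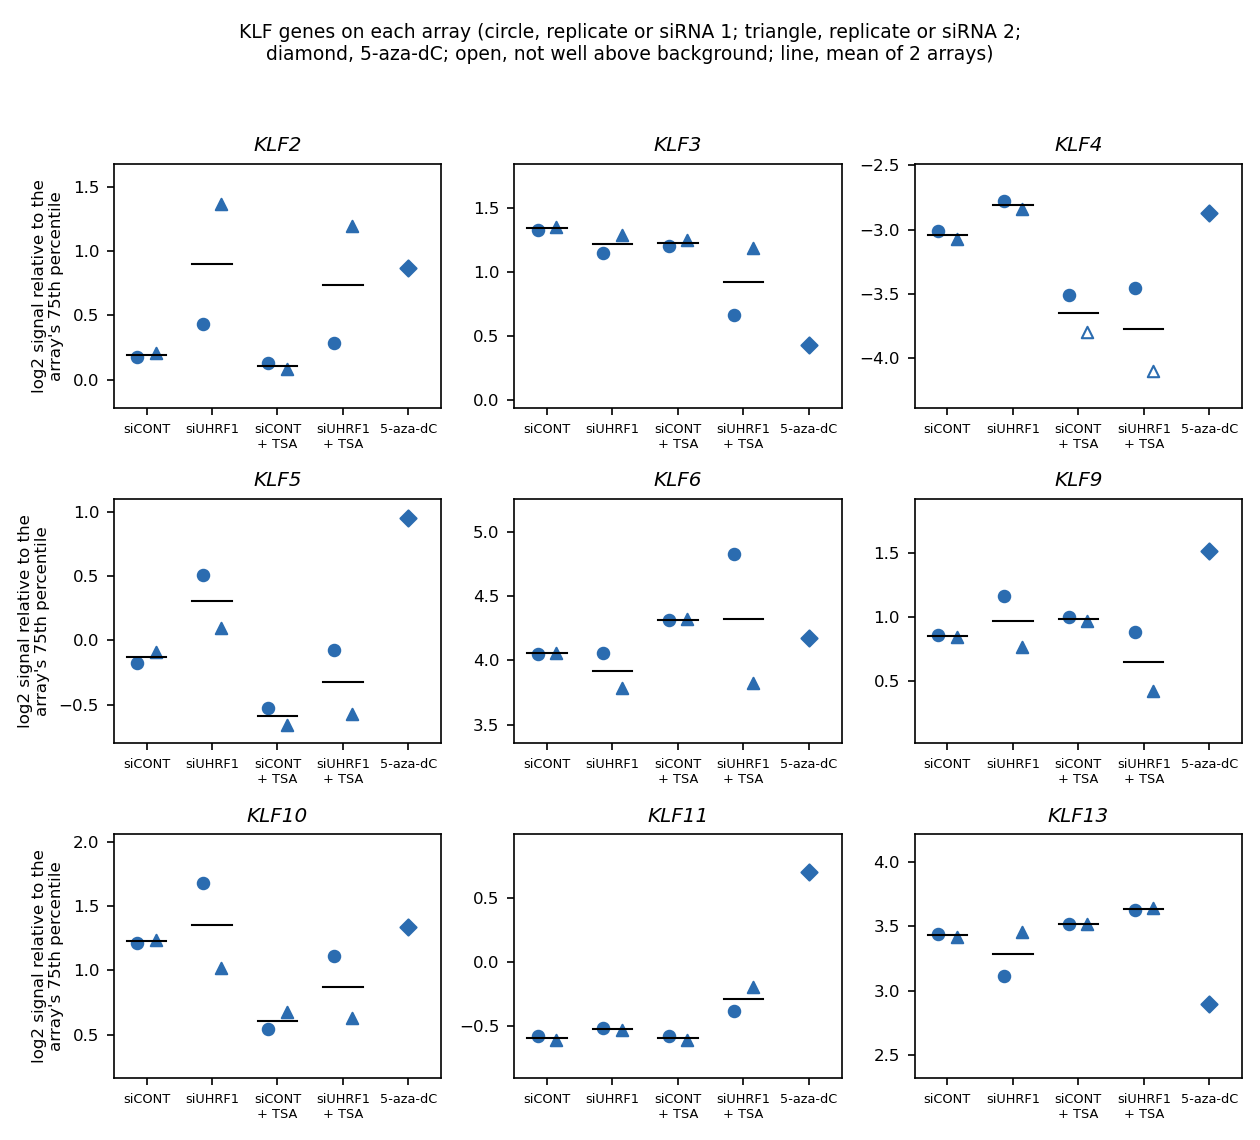
Log2 signal of each KLF gene (brightest probe) relative to the array's 75th percentile, by group; every panel spans the same range of log2 units, points are arrays and lines are means of 2 arrays. The KLF2 arrays with siUHRF1-2 sit at 1.37 and 1.19, above all other siRNA arrays, and the 4 KLF4 arrays with TSA sit below the 4 without it.

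TSA was compared with mock treatment first, to ask how the family responds to histone deacetylase inhibition. KLF4, probed at chr9:110248049-110248108 on hg19, a reprogramming factor as well as a factor of differentiated epithelium, read -3.01 and -3.07 in siCONT, and -3.51 and -3.79 in siCONT + TSA. It read -2.78 and -2.84 in siUHRF1, and -3.45 and -4.10 in siUHRF1 + TSA. The 4 TSA arrays were all below the 4 mock arrays, and array 2 of each TSA group was not well above background. In UHRF1-depleted cells KLF4, measured above background on 1 of 2 arrays of that TSA group, fell by 0.96 on the log2 scale under TSA (SE 0.22, 95% interval -1.49 to -0.44, limma, adjusted p = 0.0353). In siCONT cells the difference was -0.61 (SE 0.22, adjusted p = 0.128), which did not pass the threshold of 0.05. This siCONT difference turned positive with normexp background correction. The KLF4 call was lost when any of the 8 siRNA arrays but siUHRF1-1 + TSA was left out (adjusted p = 0.0649 to 0.116), and normexp background correction brought the KLF4 difference to -0.17 (adjusted p = 0.773). The spread is shared by 4 groups of 2 arrays, and with these depleted groups alone KLF4 had an adjusted p of 0.138.

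KLF5, which is linked to proliferation of crypt cells and is probed at chr13:73650979-73651038 on hg19, read -0.17 and -0.09 in siCONT, and -0.53 and -0.66 in siCONT + TSA. It read 0.51 and 0.10 in siUHRF1, and -0.07 and -0.57 in siUHRF1 + TSA. Within each siRNA the TSA array was lower than its mock array, by 0.59 with siUHRF1-1 and 0.67 with siUHRF1-2, but the siUHRF1 + TSA arrays overlapped with the siCONT arrays. The TSA differences of KLF5 were -0.46 in siCONT (SE 0.21, adjusted p = 0.201) and -0.63 in UHRF1-depleted cells (SE 0.21, adjusted p = 0.0908). With slide column, which holds the siRNA or siCONT number, as a block, KLF5 was called lower in both (limma, adjusted p = 0.0482 and 0.0259). Those fits called 15.7% and 21.6% of all probes. Same-numbered siCONT and siCONT + TSA arrays did not deviate together (r = 0.0795 over probes), so the siCONT number shows no pairing.

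KLF10, a TGF-β inducible repressor, was 1.22 and 1.24 in siCONT, and 0.54 and 0.67 in siCONT + TSA. It was 1.68 and 1.02 in siUHRF1, and 1.11 and 0.63 in siUHRF1 + TSA. TSA arrays were again lower within each siRNA and within each siCONT number, yet the siUHRF1 arrays were 0.66 apart. The TSA difference of KLF10 in siCONT was -0.62 (SE 0.25, adjusted p = 0.163). With slide column as a block KLF10 was called lower in siCONT (limma, adjusted p = 0.0312) and in UHRF1-depleted cells (-0.48, adjusted p = 0.0365), in a fit that called 15.7% and 21.6% of all probes. The siCONT number shows no pairing, as for KLF5. When the fit held the 4 siCONT arrays alone, KLF4, KLF5 and KLF10 were called lower and 1 other KLF gene, KLF6, higher (adjusted p = 0.0325, 0.0212, 0.0116 and 0.0196). In that fit 9279 of all probes (39.1%) passed the threshold, against 2470 in the fit with all 4 groups.

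KLF9, a glucocorticoid- and thyroid hormone-responsive factor, was 0.86 and 0.84 in siCONT and 1.00 and 0.97 in siCONT + TSA. In depleted cells it was 1.16 and 0.77 without TSA, and 0.88 and 0.42 with it. TSA arrays of KLF9 were thus higher than mock arrays in both siCONT numbers, by 0.14 and 0.13, and lower for both siRNAs, by 0.28 and 0.35. The test of this difference gave -0.45 on the log2 scale (SE 0.27, limma, unadjusted p = 0.145, adjusted p = 1), and the adjusted p with slide column as a block was 0.44, so neither passed the threshold.

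The brightest probes of KLF6 and KLF13 read higher in the TSA array than in the mock array for each siCONT number and each siRNA, though neither gene was called. The other KLF6 probe above background on all 8 arrays differed the other way, by -0.19 in siCONT and -0.34 in UHRF1-depleted cells. KLF6 was 4.05 and 4.06 in siCONT, 4.31 and 4.32 in siCONT + TSA, 4.06 and 3.78 in siUHRF1, and 4.83 and 3.82 in siUHRF1 + TSA. KLF13, which activates CCL5 in T cells and binds Sin3, was 3.45 and 3.42 in siCONT, 3.11 and 3.46 in siUHRF1, 3.52 in both siCONT + TSA arrays, and 3.63 and 3.64 in siUHRF1 + TSA. KLF3, a CtBP-dependent repressor, was 1.33 and 1.35 in siCONT, 1.15 and 1.29 in siUHRF1, 1.20 and 1.25 in siCONT + TSA, and 0.66 and 1.19 in siUHRF1 + TSA. The low KLF3 value of siUHRF1-1 with TSA stood apart from the other 7 arrays.

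Over the family, 0 of the 9 genes were called in siCONT + TSA against siCONT, where 6.96% of the 17857 gene names tested were called higher and 3.88% lower. Both siCONT + TSA arrays lay above both siCONT arrays for 3 genes and below them for 5, beside 45.1% and 30.5% of all probes. At an unadjusted p below 0.05 there were 2 genes, KLF4 and KLF10, both lower, beside 28.9% of all probes in either direction, and the methods' t-test after Benjamini-Hochberg adjustment called 1 gene, KLF6, higher (adjusted p = 0.0251), beside 18.3% of all probes. Without siUHRF1-1 + TSA or siUHRF1-2 + TSA, KLF4 was called lower (limma, adjusted p = 0.0488 and 0.0483), beside 9.5% and 9.59% of all probes called. In siUHRF1 + TSA against siUHRF1, KLF4 was the 1 gene called lower and 0 were called higher, beside a background of 5.49% lower and 10.8% higher. In that comparison both TSA arrays lay above both mock arrays for 2 genes and below them for 2, beside 32.1% and 20.9% of all probes. Which genes were called there changed when 1 depleted array was left out, which leaves 1 array in a compared group. With siUHRF1-1 the TSA array differed from its mock array by 0.77 for KLF6, -0.48 for KLF3 and 0.51 for KLF13. With siUHRF1-2 these differences were 0.04, -0.10 and 0.18. The median log2 difference of the 9 genes was -0.08 in the former comparison and -0.29 in the latter, and that of all probes was 0.07 in both.

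Depletion of UHRF1 without TSA was compared next. KLF11, a Sin3-binding repressor that is also induced by TGF-β, was -0.57 and -0.61 in siCONT, and -0.51 and -0.53 in siUHRF1. It was -0.58 and -0.61 in siCONT + TSA, and -0.38 and -0.20 in siUHRF1 + TSA, so both siUHRF1 + TSA arrays were above the other 6. The KLF11 difference was 0.30 against siCONT (SE 0.10, 95% interval 0.06 to 0.54, adjusted p = 0.0747) and 0.30 against siCONT + TSA (SE 0.10, adjusted p = 0.189). KLF5 was higher in both siUHRF1 arrays than in both siCONT arrays, with a difference of 0.43 (SE 0.21, adjusted p = 0.63). KLF2, the lung Krüppel-like factor of quiescent lymphocytes and endothelium, differed by 0.71 (SE 0.38, adjusted p = 0.69), with 0.18 and 0.20 in siCONT against 0.43 and 1.37 in siUHRF1.

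None of the 9 genes was called in siUHRF1 against siCONT, where 0.61% of gene names were called higher and 0.0336% lower. By unadjusted p below 0.05 the number was also 0, beside 8.9% of all probes, and the median of the KLF genes was 0.12 against -0.004 for all probes. Both siUHRF1 arrays lay above both siCONT arrays for 4 genes and below them for 1, beside 19.8% and 17.5% of all probes. In siUHRF1 + TSA, the combination, against siCONT, 0 KLF genes were called beside 16.1% of gene names higher and 8.08% lower, and KLF4 had the lowest adjusted p (0.0566, difference -0.74, SE 0.22). With the replicate number as a block KLF4 was called lower, in a fit that called 22.4% of all probes. At an unadjusted p below 0.05, 2 genes passed, KLF11 higher and KLF4 lower, beside 37.8% of all probes. Both combination arrays lay above both siCONT arrays for 3 genes and below them for 3, beside 40.4% and 29.3% of all probes. Which genes were called changed when 1 siUHRF1 + TSA array was left out, which leaves 1 array in that group. Without siUHRF1-1 + TSA the KLF4 difference was -1.06, but KLF4 was not well above background on the array left. On the siUHRF1-1 + TSA array KLF3 read 0.66 and KLF6 4.83, against siCONT means of 1.34 and 4.06. In siUHRF1 + TSA against siCONT + TSA, 0 were called beside 3.26% higher and 0.577% lower, and 1 gene, KLF11, had an unadjusted p below 0.05, beside 17.4% of all probes. The depleted arrays both lay above both siCONT + TSA arrays for 3 genes and below them for 2, beside 26.8% of all probes each way. The interaction, the effect of UHRF1 depletion with TSA minus that without it, called 0 KLF genes beside 0.358% higher and 0.028% lower, and 0 had an unadjusted p below 0.05, beside 4.91% of all probes. These comparisons share control arrays. With 2 arrays a group, the 95% interval of the difference in siUHRF1 + TSA against siCONT reached from -0.37 to 1.47 for KLF2 and from 0.06 to 0.54 for KLF11, so wide differences of KLF2 were not separable from the spread.

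**Figure D2:**
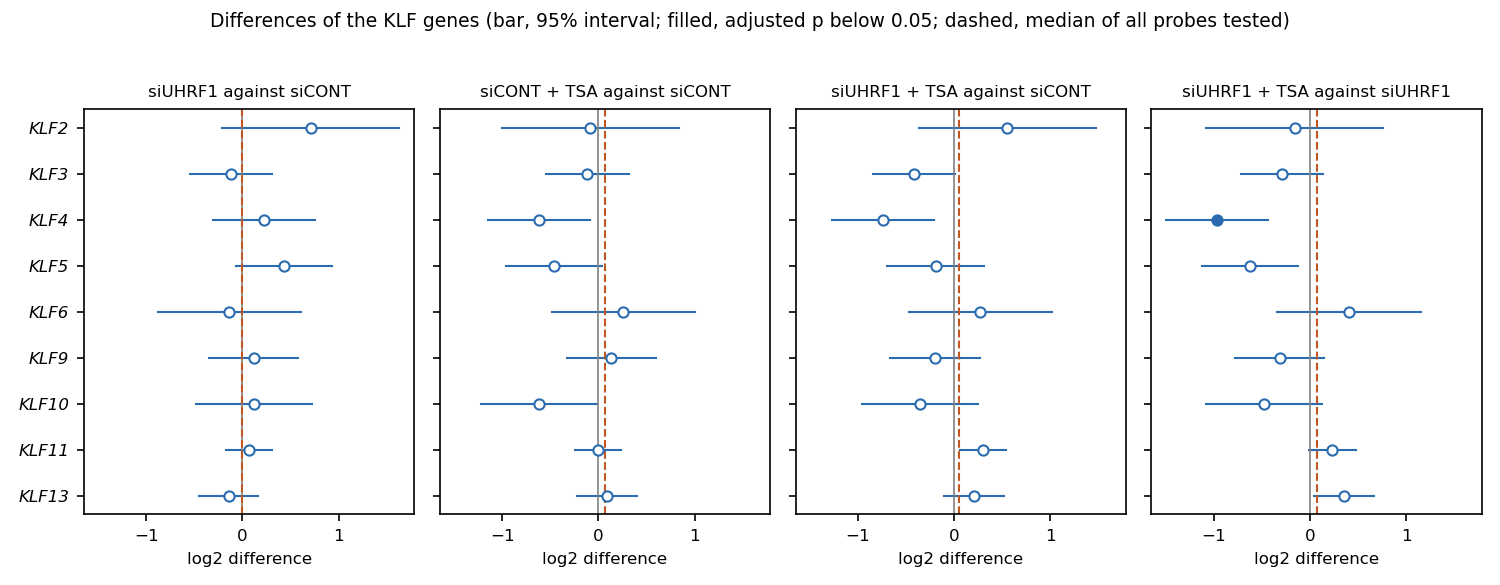
Log2 difference of each KLF gene in 4 comparisons, with 95% intervals from limma, filled where the adjusted p was below 0.05; the dashed line is the median of all probes tested. KLF4 under TSA in UHRF1-depleted cells (-0.96) is the filled point.

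The siRNAs themselves were then set against each other, a comparison added after the values were seen. The median absolute gap between the arrays of a group was 0.07 in siCONT and 0.08 in siCONT + TSA, against 0.26 in siUHRF1 and 0.19 in siUHRF1 + TSA. siUHRF1-2 was compared with siUHRF1-1 over the 4 depleted arrays, with TSA as a term and the siCONT arrays kept for the spread. Of the KLF genes, 1 was higher with siUHRF1-2 and 3 were lower, where 9.06% of all gene names were higher and 5.71% lower.

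KLF2 was the gene that was higher. It read 0.43 with siUHRF1-1 and 1.37 with siUHRF1-2 without TSA, and 0.29 and 1.19 with TSA, while the siCONT and siCONT + TSA arrays lay between 0.09 and 0.20. The difference of KLF2 between the siRNAs was 0.92, or 1.90-fold (SE 0.06, 95% interval 0.77 to 1.07, limma, adjusted p = 0.015). The KLF2 probe (chr19:16438246-16438305 on hg19) is printed 10 times on each array, and these spots had an SD of 0.05 on the siUHRF1-2 array and 0.06 on the siUHRF1-1 array without TSA. The lowest of the 10 siUHRF1-2 spots read 1.30 and the highest siUHRF1-1 spot 0.56, which describes the precision of the reading on each array and not the spread between cultures.

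KLF5, KLF9 and KLF10 were lower with siUHRF1-2. KLF10 was 0.66 lower without TSA and 0.48 lower with it, giving -0.57 (SE 0.08, adjusted p = 0.0243). KLF9 was 0.40 and 0.46 lower, giving -0.43 (SE 0.06, adjusted p = 0.0226), and KLF5 was 0.42 and 0.50 lower, giving -0.46 (SE 0.08, adjusted p = 0.0306). Each of these gaps was in the same direction with and without TSA and was larger than the gaps between the siCONT arrays, which reached 0.13 for these genes. KLF6 was lower by 0.28 and 1.01 (difference -0.64, SE 0.18, adjusted p = 0.0741). The dimmer KLF6 probe with all 8 arrays above background differed by 0.02 without TSA and by -1.08 with it.

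Depletion of UHRF1 by the siRNAs was read beside these values. UHRF1 was lower by 0.28 with siUHRF1-2 on its brighter probe (SE 0.05, adjusted p = 0.0385), and by 0.12 on the other (SE 0.15, adjusted p = 0.624). The spread in this fit has 3 degrees of freedom among arrays, 2 of them from siCONT pairs that lay close together. With the 4 depleted arrays alone, 0 KLF genes were called (adjusted p = 0.164 for KLF2), and leaving out any siCONT or siCONT + TSA array gave 0 as well (adjusted p = 0.0687 to 0.0827 for KLF2). Each of these fits called 0% of all probes, so every call between the siRNAs given here, UHRF1 and genes outside the family included, was lost in them. Without either mock siUHRF1 array the calls were 2, KLF2 and KLF6, beside 2.39% of probes without array 1 and 3.06% without array 2, and without either siUHRF1 + TSA array they were 4, KLF2, KLF9, KLF10 and KLF13, beside 18.0% and 18.1%. Slide columns 3 and 4 held the different siRNAs, so column and siRNA cannot be told apart.

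**Figure D3:**
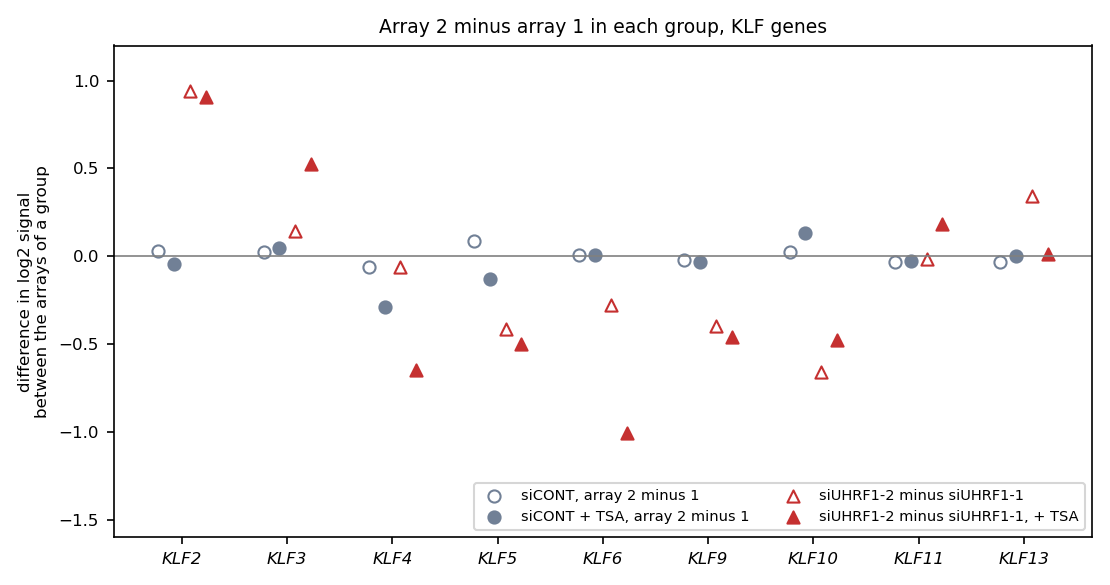
Array 2 minus array 1 in each group, in log2 signal, for the brightest probe of each KLF gene; circles are siCONT groups and triangles UHRF1-depleted groups, filled with TSA. KLF2 lies at 0.94 and 0.91 in the depleted groups, and KLF5, KLF9 and KLF10 lie below 0 in both.

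Each siRNA was therefore also set against siCONT on its own, by leaving out both arrays of the other, which leaves 1 array in each depleted group. KLF2 with siUHRF1-2 was higher than siCONT by 1.18 without TSA (adjusted p = 0.0202) and by 1.00 with TSA (adjusted p = 0.00525), and was not called with siUHRF1-1. Under TSA, siUHRF1-2 gave 8 called KLF genes against siCONT, 3 higher (KLF2, KLF11 and KLF13) and 5 lower (KLF4, KLF5, KLF6, KLF9 and KLF10), in a fit that called 41.4% of all probes. siUHRF1-1 gave 2, in a fit that called 39.7%, KLF6 higher by 0.77 (adjusted p = 0.00576) and KLF3 lower by 0.68 (adjusted p = 0.0078). KLF6 thus had opposite calls, since with siUHRF1-2 it was lower by 0.23 (adjusted p = 0.0347). In these fits the spread comes from the siCONT pairs, and the lone arrays are assumed to vary like them. KLF4, counted as lower with siUHRF1-2 under TSA, was not well above background on that array.

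Immediate early genes, which serum and stress induce within minutes and which include partners of the KLF factors at promoters, were counted beside the family. In the siRNA comparison 8 of 15 tested were lower with siUHRF1-2 and 1 was higher, against the same background of 5.71% and 9.06%. FOS, a subunit of AP-1, was 0.11 with siUHRF1-1 and -0.83 with siUHRF1-2, and -0.06 and -1.14 under TSA, giving a difference of -1.01 (SE 0.08, adjusted p = 0.0164). The siCONT arrays of FOS read -0.66 and -0.54, between the siRNAs. EGR2, a zinc finger factor, differed by -0.97 (SE 0.11, adjusted p = 0.0192), ZFP36, which promotes decay of AU-rich mRNAs, by -0.55 (SE 0.07, adjusted p = 0.0218), and JUN by -0.57 (SE 0.12, adjusted p = 0.0449). IER3 was the 1 gene higher with siUHRF1-2 (0.44, SE 0.07, adjusted p = 0.0293). All 9 calls were lost when any 1 siCONT or siCONT + TSA array was left out, and with the depleted arrays alone, where 0% of all probes were called. The genes named here were chosen after their values were seen.

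**Figure D4:**
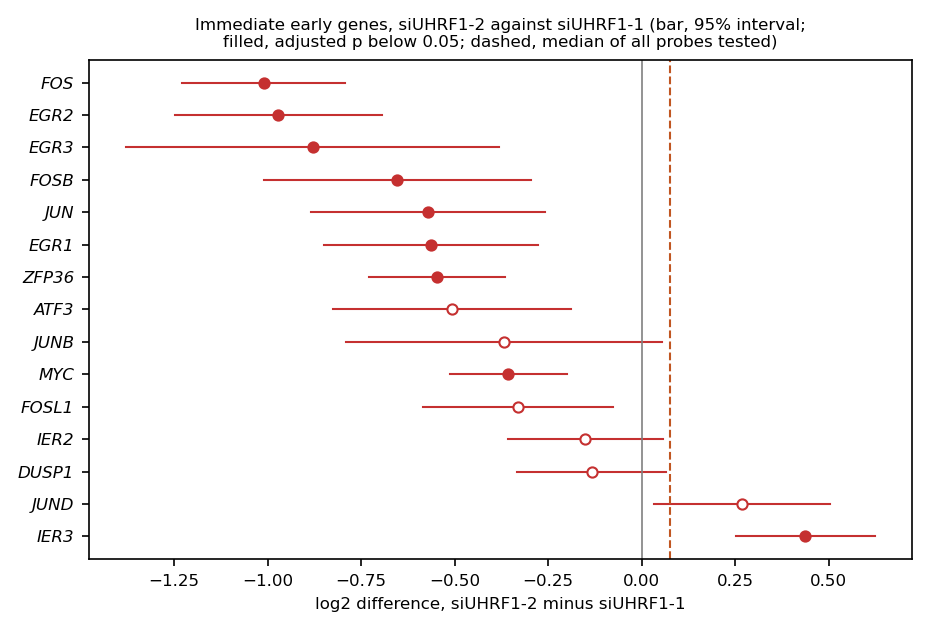
Log2 difference between siUHRF1-2 and siUHRF1-1 for the 15 immediate early genes tested, with 95% intervals from limma, filled where the adjusted p was below 0.05; the dashed line is the median of all probes. FOS (-1.01) is lowest, and IER3 (0.44) and JUND (0.27) lie above 0.

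5-aza-dC was compared with siCONT in a fit of all 9 arrays, in which its array, with no replicate, is assumed to vary like the other groups, so the differences have no replicate check, and SE and p rest on the spread of the siRNA groups alone and hold none of 5-aza-dC itself. KLF11 read 0.70 on that array, above every siRNA array, and the difference was 1.29, or 2.44-fold (SE 0.12, limma, adjusted p = 0.000559). Its other probe (chr2:10183138-10183197 on hg19, against chr2:10194646-10194705 for the brighter one) was not well above background on any siRNA array and entered the fit through the 5-aza-dC array alone, so its value, at least 2.77-fold higher there, is given as a description. Here the bound takes, on each siCONT array, the higher of the probe's own signal and the lowest signal among probes well above background. KLF5 read 0.96, a difference of 1.08 or 2.12-fold (SE 0.26, adjusted p = 0.0166). KLF3 read 0.43, lower by 0.91 (SE 0.22, adjusted p = 0.0175), and KLF13 read 2.90, lower by 0.53 (SE 0.16, adjusted p = 0.0354). Without either siCONT array the KLF11 call was kept, and those of KLF5 (adjusted p = 0.0649 without array 1 and 0.0527 without array 2), KLF3 (0.0616 and 0.0655) and KLF13 (0.121 and 0.107) were not. KLF13 was also not called without any 1 of the 4 TSA arrays (adjusted p = 0.0534 to 0.0721).

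Thus 2 KLF genes were higher and 2 lower, beside 25.4% of 20506 gene names higher and 23.9% lower. KLF4 and KLF10, which had unadjusted p below 0.05 under TSA in siCONT, differed by 0.17 (SE 0.27, adjusted p = 0.635) and 0.11 (SE 0.31, adjusted p = 0.798). KLF2 read 0.87, between the siRNAs, with a difference of 0.68 (SE 0.48, adjusted p = 0.284). KLF9 differed by 0.66 (SE 0.24, adjusted p = 0.0639). The 5-aza-dC array was brighter, with a 75th percentile of 822 against 245 to 338, and scaling on spike-in probes moved the median of all probes from 0.01 to -1.72. This scaling moves all genes of an array alike, so the order of the 9 genes could not change. On that scale KLF11 and KLF5 stood at -0.45 and -0.65. There 7 KLF genes were called lower, beside 86.1% of all probes called, so all directions here are relative to the other probes of the array. For this array the drug, the lack of siRNA, the slide and the scan cannot be told apart.

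**Figure D5:**
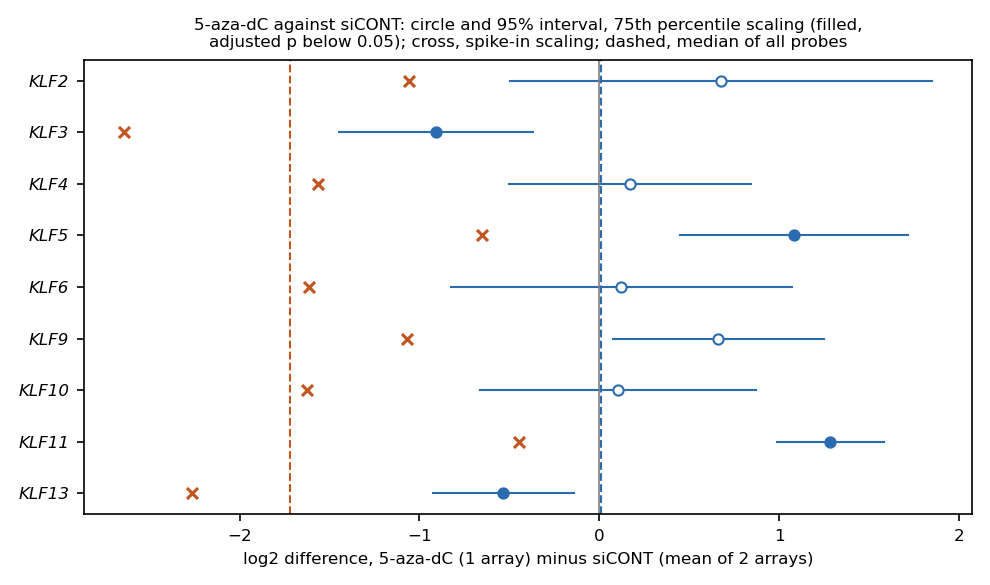
Log2 difference between the 5-aza-dC array and the mean of 2 siCONT arrays for each KLF gene; circles with 95% intervals use the 75th percentile and crosses the spike-in probes, with dashed lines at the median of all probes on each scale. KLF11 (1.29) and KLF5 (1.08) lie farthest right, and the order is the same on both scales because the scaling moves all genes alike.

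Other KLF and SP genes were counted beside the members. Of 14 tested, SP4 fell in siCONT + TSA and SP6 rose, and in the combination SP6 and KLF16 rose and SP4 and KLF15 fell. These counts stand beside 6.96% of gene names higher and 3.88% lower in siCONT + TSA, and 16.1% and 8.08% in the combination. SP4, a neuronal relative of SP1, read -1.14 and -1.15 in siCONT, and -2.02 and -1.90 in siCONT + TSA. It read -2.26 and -2.18 in the combination, giving -1.08 against siCONT (SE 0.11, adjusted p = 0.00224). KLF16, a repressor of the BTEB group, rose by 0.72 (SE 0.16, adjusted p = 0.0234), from 3.29 and 3.30 in siCONT to 3.99 and 4.04 in the combination. With TSA alone it read 3.87 on both arrays, a difference of 0.57 that was not called (SE 0.16, limma, adjusted p = 0.0717). KLF15, a glucocorticoid target in muscle and liver, was well above background on 1 of 2 siCONT arrays and on no TSA array. Its call in the combination thus rests on readings below background. It was at least 1.31-fold lower there, a bound that takes both siCONT readings as measured. In siUHRF1 against siCONT 0 of the 14 were called, beside 0.61% and 0.0336% of gene names, and with 5-aza-dC 6 of 16 were higher and 4 lower, beside 25.4% and 23.9% of gene names. Of these 16, KLF7 and KLF8 passed the filter only through the 5-aza-dC array, and without such genes 4 of 14 were higher and 4 lower, beside 19.5% and 27.2%. Among the others were SP3 (1.46, SE 0.15, adjusted p = 0.000774) and KLF12 (-0.98, SE 0.14, adjusted p = 0.00257). With siUHRF1-2 against siUHRF1-1, SP5 was the 1 gene higher (0.57, SE 0.09, adjusted p = 0.0291), beside 9.06% higher and 5.71% lower, and this call was lost without any 1 siCONT or siCONT + TSA array.

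Ligands, receptors and signals known to act upstream of the family were counted next. In the combination 4 of 18 tested rose and 0 fell, beside the 16.1% and 8.08% of all gene names. TGFB1, the ligand that induces KLF10 and KLF11, read 0.34 and 0.36 in siCONT, 0.79 and 0.77 in siCONT + TSA, and 1.23 and 1.12 in the combination (difference 0.82, SE 0.09, adjusted p = 0.00306). Within each siRNA and each siCONT number, the TSA array was lower for KLF10 and higher for TGFB1. The siCONT number shows no pairing, and the part of TGFB1 in the KLF10 values was not tested. SMAD3, which carries the TGF-β signal to the nucleus, rose by 0.45 (SE 0.12, adjusted p = 0.0403), MAPK7, the kinase upstream of KLF2 in endothelium, by 0.45 (SE 0.12, adjusted p = 0.0396), and CTNNB1 by 0.49 (SE 0.10, adjusted p = 0.0166). In the siRNA comparison 0 of the 18 were higher with siUHRF1-2 and 2 were lower, beside 9.06% and 5.71% of gene names.

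Corepressors and coactivators of the KLF factors were counted too. In the combination 3 of 19 tested rose and 0 fell, beside 16.1% and 8.08% of gene names, namely CREBBP, SIN3B and CTBP2, by 0.35 (SE 0.09, adjusted p = 0.0363), 0.34 (SE 0.09, adjusted p = 0.0408) and 0.38 (SE 0.10, adjusted p = 0.045). In siCONT + TSA and in siUHRF1, each against siCONT, 0 of the 19 were called, beside 6.96% and 3.88%, and 0.61% and 0.0336%, of gene names higher and lower. SIN3B and CTBP2 belong to the complexes through which KLF repressors act.

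Among genes described as KLF targets, more rose than fell. In siCONT + TSA 4 of 25 tested rose and 1 fell (beside 6.96% and 3.88% of all gene names), and in the combination 9 rose and 0 fell (beside 16.1% and 8.08% of all gene names). CCNB1, a mitotic cyclin that KLF4 is known to repress, read 2.968 and 3.003 in siCONT, 4.04 and 4.07 in siCONT + TSA, and 4.29 and 4.34 in the combination (difference 1.33, SE 0.09, adjusted p = 0.000482). KRT19, an epithelial keratin and KLF4 target, passed the filter among the siRNA groups only through the combination, and was at least 4.26-fold higher there. Without it 8 of 24 targets rose, beside 14.5% of gene names on the same basis. SMAD7 (0.75, SE 0.09, adjusted p = 0.00365), CDKN1C (1.22, SE 0.20, adjusted p = 0.00957) and BIRC5 (0.99, SE 0.14, adjusted p = 0.0062) rose as well. CDKN1A, the p21 inhibitor that KLF4 and KLF6 are known to activate, differed by 0.01 in the combination (SE 0.12, adjusted p = 0.964) and by -0.44 in siCONT + TSA (SE 0.12, adjusted p = 0.069). CCND1 differed by 0.49 (SE 0.19, adjusted p = 0.116). Cell cycle genes and epithelial keratins have many other regulators, and the part of the KLF genes in these values was not tested.

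Glucocorticoid-responsive genes were counted as a setting in which KLF9 and KLF15 are known. Of 10 tested, 2 fell in siCONT + TSA and 4 in the combination, with 0 rising in either, beside 3.88% and 8.08% of gene names lower. DDIT4, an mTOR inhibitor, read 3.36 on both siCONT arrays, 1.69 and 1.70 in siCONT + TSA, and 1.50 and 0.78 in the combination (difference -2.22, SE 0.25, adjusted p = 0.00288). TSC22D3 fell by 1.04 (SE 0.13, adjusted p = 0.00445), FKBP5 by 0.80 (SE 0.12, adjusted p = 0.00651) and ERRFI1 by 1.22 (SE 0.33, adjusted p = 0.0425). KLF9 was not called in any of these comparisons. NR3C1, the glucocorticoid receptor gene, was well above background on 0 of the 8 siRNA arrays, though it was on the 5-aza-dC array. The part of glucocorticoid signalling in these values was not tested. Of 12 circadian genes, a set that KLF9 and KLF10 are linked to, 2 rose and 3 fell in the combination, beside 16.1% and 8.08%. NR1D1 rose by 0.67 (SE 0.16, adjusted p = 0.0312) and CRY2 by 0.43 (SE 0.09, adjusted p = 0.0233), whereas BMAL1, BHLHE40 and BHLHE41 fell by 0.55, 0.70 and 1.07 (adjusted p = 0.0177, 0.0258 and 0.0431). With TSA alone the differences of these genes, in the same order, were 0.87, 0.67, -0.48, -0.90 and -0.68. Of 15 immediate early genes, EGR3 rose by 1.54 (SE 0.40, adjusted p = 0.0377) and ATF3 fell by 1.54 (SE 0.24, adjusted p = 0.00782) in the combination.

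Markers of other cell types were read beside these groups. In the combination 5 of 5 tested mesenchymal markers rose, but COL1A2 and PDGFRB passed the filter only through that group. Without them 3 of 3 rose, beside 14.5% of gene names on the same basis. Among them VIM read -0.39 and -0.43 in siCONT, 2.49 and 2.45 in siCONT + TSA, and 2.45 and 2.16 in the combination. The rise of VIM was thus already present with TSA alone. COL3A1 was well above background on 0 of 9 arrays. Of the epithelial markers 2 of 4 tested rose and 0 fell, KRT18, a simple epithelial keratin (0.81, SE 0.13, adjusted p = 0.0087), and KRT19, and without KRT19 1 of 3 rose. CDH1 and VIL1 were well above background on 0 arrays. The endothelial marker VWF was at least 10.5-fold higher, while PECAM1 was above background on 0 arrays and CDH5 on 9. The leukocyte marker PTPRC was above background on 6 arrays and was not called in the combination. The culture is 1 cell line, and the part of these markers in the KLF values was not tested.

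The genes whose arrays ran most like those of the members were listed for KLF4 and KLF5, which had the largest F over the 4 groups. Pearson's r over the 8 arrays, for genes with a range of at least 1 on the log2 scale, was highest with KLF4 for LAMP3 (0.98), FAM76A (0.96), FLJ43315 (0.96) and PMAIP1 (0.96). With KLF5 it was highest for GSE1 (0.99), EPB41L5 (0.96), OTUD1 (0.95) and LNPEP (0.95). These were the top of 2097 and 2096 candidates over arrays that share treatments and siRNAs, and are given as a description. Candidates were well above background on all 8 arrays, but KLF4 itself was on 6. Its lowest readings, -3.79 and -4.10, were those not well above background.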

How the data were processed

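The authors hybridized total RNA of RKO cells to 1-colour arrays and extracted them with Agilent Feature Extraction 10.7, per the submitters' processing notes. The deposited files hold 1 spot intensity per feature after the scanner software's background subtraction, not normalized between arrays; hg19 is the build of the probe positions per the file headers. The deposited value table held the same signals, within 1% on 100% of rows. Exon and UTR positions of the probes were not assigned, since no annotation of that build was used here.

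Groups came from the sample labels. Spots flagged as outliers and control spots were left out, log2 intensity was shifted by each array's 75th percentile, and spots of a probe were averaged. Probes were tested where some group had all its arrays well above background (23731, or 27174 with 5-aza-dC). Group differences were tested with limma 3.58.1 (lmFit, eBayes) in R 4.3.3, with Benjamini-Hochberg adjustment over all probes, and called at an adjusted p below 0.05. A gene is its brightest probe among those tested. At-least folds bound a group that is not well above background. The precision is limited by the number of arrays. No block for slide or scan could be fitted.

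The members, lists and tests were chosen with earlier results of these data known. Named were all KLF members, UHRF1, called KLF and SP relatives, and up to 6 genes per list called in siCONT + TSA or siUHRF1 + TSA against siCONT with the lowest p, plus CDKN1A, CCND1 and CCNB1; exceptions are stated. The scripts were tested on simulated data. Alternatives covered background correction, scaling, filters, blocks, priors, the methods' t-test and leaving out arrays. List counts without genes that passed the filter only through the group in which they are higher were added after the data were seen.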

Additional observations from a re-analysis of the deposited data

How the results depend on the processing

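With 2 arrays a group, counts of called KLF genes depended on the setting. KLF4 was the 1 gene called in siUHRF1 + TSA against siUHRF1. The count was 0 with normexp (3.37% of all probes), spike-in scaling (7.84%), no filter on dim probes (3.74%) and the compared groups alone (2.2%). It was also 0 with the methods' t-test after adjustment (0.00421%) and with a 2-fold limit by either unadjusted test (5.93% and 3.35%). With probes above background on every array (17.1%) 0 were called, but KLF4, above background on 6 of 8 arrays, was not tested there. The count was 3 with slide column as a block (KLF4, KLF5 and KLF10, beside 21.6% of all probes) and 3 by unadjusted p (32.7%). Leaving out arrays moved it too, as described above for KLF4. The 4 calls between the siRNAs became 0 with normexp (0.147%), no filter (0%), the depleted arrays alone (0%), or a 2-fold limit (1.50%), and 0 to 4 leaving out 1 array (0% to 18.1%). In siUHRF1 + TSA against siCONT the 0 calls became 1 with quantile normalization (25.0%), 1 with the replicate block (KLF4, -0.74, adjusted p = 0.0358; 22.4%), 2 by unadjusted p (37.8%), 8 without both siUHRF1-1 arrays (41.4%), 2 without both siUHRF1-2 arrays (39.7%), and 0 to 2 leaving out 1 (7.41% to 31.3%). In siCONT + TSA against siCONT they became 4 with the compared groups alone (39.1%), 2 with slide column as a block (15.7%), 4 without both arrays of either siRNA (35.3% and 35.9%), 1 by the methods' t-test after adjustment (18.3%), 2 by unadjusted p (28.9%), and 0 to 1 leaving out 1 (0.782% to 18.7%). In siUHRF1 + TSA against siCONT + TSA they became 4 without both siUHRF1-1 arrays (13.6%), 3 without both siUHRF1-2 arrays (13.2%) and 1 by unadjusted p (17.4%), and in siUHRF1 against siCONT 1 without both siUHRF1-1 arrays (3.19%). With 5-aza-dC the 4 calls became 7 with spike-in scaling (86.1%) and 0 with the methods' t-test after adjustment (0.00368%). They became 2 with a 2-fold limit by either unadjusted test (30.1% and 20.3%), and the count also moved when 1 array was left out. The replicate block (46.5%) ended the KLF13 call (-0.49, limma, adjusted p = 0.0635). The UHRF1 difference kept -2.47 but was not called by the methods' t-test after adjustment. Directions turned with normexp for KLF4 in siCONT + TSA (0.36) and between the siRNAs (0.012), and with spike-in scaling for all 7 KLF genes above 0 with 5-aza-dC, namely KLF2 (-1.06), KLF4 (-1.56), KLF5 (-0.65), KLF6 (-1.61), KLF9 (-1.07), KLF10 (-1.63) and KLF11 (-0.45), and KLF13 between the siRNAs (-0.11). With 5-aza-dC this scaling moved all genes alike, the median of all probes going from 0.01 to -1.72. Those 7 turns are therefore not particular to the KLF genes. Among differences with an unadjusted p of 0.2 or more, 51 of 895 values over all alternatives had the other sign. The cause of these changes was not tested beyond what each setting leaves out. KLF11 with 5-aza-dC was called in 24 of 26 alternatives, and KLF2 between the siRNAs in 13 of 21.

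Same-numbered arrays deviated together between siUHRF1 and siUHRF1 + TSA (r = 0.466 over probes), which share an siRNA, and not in other pairs of groups (r from -0.0469 to 0.0795), so the number does not pair siCONT arrays. Over all probes, calls ranged from 9 to 791 in siUHRF1 against siCONT (132 as reported), 187 to 9279 in siCONT + TSA (2470), 1693 to 10244 in the combination against siCONT (5515), 92 to 3378 against siCONT + TSA (839), 521 to 8656 in the combination against siUHRF1 (3673), 0 to 348 in the interaction (90), 9482 to 23385 with 5-aza-dC (13284) and 0 to 6245 between the siRNAs (3389). Slide or scan as a block was not run, since all siRNA arrays share them. KLF4, near the background signal, was the member most limited by signal.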

Other observations

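Immediate early genes were also read on the 5-aza-dC array, which carried no siRNA. Of 16 tested, 8 were higher and 2, MYC and FOSL1, lower than in siCONT, and 6, among them EGR1, JUN and ATF3, were not called (limma, adjusted p below 0.05). Of all gene names 25.4% were higher and 23.9% lower. Without genes that passed the filter only through the 5-aza-dC array, 7 of 15 were higher and 2 lower, beside 19.5% and 27.2%. FOS read 1.07 on this array, above all 8 siRNA arrays. Of the genes described as KLF targets, 13 of 25 were higher and 4 lower on the same basis, of partners of the KLF factors 7 of 19 were higher and 3 lower, and of upstream genes 4 of 18 were higher and 4 lower. The part of slide, scan and transfection in these values was not tested.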
